A study of Caenorhabditis elegans with 39 samples.

Results

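Alg1E larvae collected each hour from 20 to 30 h after plating were set against N2 larvae 2 h younger, collected from 18 to 28 h. The Alg1E hour minus 2 gave the N2 hour, which made 11 pairs from 22 of the 39 libraries of the series. The comparison asks which differences in microRNA (miRNA) levels remain when the mutant is matched to younger wild type. The shift of 2 h was itself chosen by measured values of these libraries, the time courses of miRNAs that change with time. A difference that shrinks in such a miRNA is therefore built into the pairing and is described here without a test.

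N2 is the standard wild type strain of Caenorhabditis elegans, and its genotype is labelled WT. Alg1E is labelled as a genotype in the N2 background, and the series concerns mutants of alg-1. The letter E is not spelled out in the labels, and the number of independent lines behind it is not given there. The worms grew at 25 °C after synchronized first-stage larvae were plated, and total RNA came from the whole body of worms washed off plates. Small RNA sequencing gave 1 library per genotype and hour, with no culture, batch or replicate named. Libraries of neighbouring hours may share a culture, and the spread between hourly pairs on which the p-values rest may be technical.

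An miRNA is cut from an RNA hairpin as a duplex of a 5p and a 3p arm. An Argonaute protein, in C. elegans mainly ALG-1 or ALG-2, binds the duplex, keeps the guide arm and releases the other, which is usually degraded. ALG-1 is encoded by alg-1 on chromosome X, from 13949110 to 13956261 (+ strand, WBcel235). In larvae, lin-4 and the let-7 family act in the heterochronic pathway, in which each miRNA accumulates at a set stage and switches off the programme of the stage before. A wild type control of another age can therefore differ from a mutant through age alone.

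The N2 libraries held 2724406 to 4479656 miRNA reads (median 3735696) and the Alg1E libraries 1146950 to 4668890 (median 2027911). Of 437 miRNA entries, 395 had a read in the 22 libraries and 237 passed the filter on low counts. Levels are CPM, read counts relative to library size, scaled by TMM, which takes most miRNAs to be unchanged, with the SD over 11 hours. Markers of the main tissues were present in each library, with the muscle miRNA miR-1-3p at 66079 CPM or more, the intestinal miR-60-3p at 7855 or more and the neuronal lsy-6-3p at 34.2 or more. Reads that fell on no miRNA took 51.8% ± 10.7 of the Alg1E reads and 34.3% ± 7.14 of the N2 reads (SD, n = 11 each). They were higher in Alg1E in 10 of 11 pairs (exact sign-flip permutation test, two-sided p = 0.00195), and their part in the results below was not tested.

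Several late-rising miRNAs were lower in Alg1E by much less against N2 2 h younger than against N2 of the same hour. let-7-5p, which acts at the end of larval development, was at 578 CPM in N2 at 18 h, at 19964 at 23 h and at 14477 at 28 h. In Alg1E it was at 524 CPM at 20 h, still at 447 at 22 h, at 10779 at 25 h and at 15079 at 30 h. Its level ranged from 558 to 19964 CPM over the N2 libraries (median 14477) and from 412 to 20903 over the Alg1E libraries (median 7806), so the groups overlapped across their range. The log2 difference was -0.35 (SE 0.14) against N2 2 h younger and -1.14 against N2 of the same hour. Moved by 2 h, the steep part of the let-7-5p rise lay at the same place in both genotypes, while the Alg1E libraries of 25, 26 and 28 h lay under the N2 plateau.

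miR-85-3p rose over the whole course, from 9.29 CPM in N2 at 18 h to 2445 at 28 h, and from 16.7 CPM in Alg1E at 20 h to 2131 at 30 h. Its log2 difference went from -1.62 against the same hour to 0.07 (SE 0.25), with Alg1E higher in 6 of 11 pairs. These pairs were not evenly spread, since Alg1E was above N2 in the first 6 pairs and below it in the last 5. miR-246-3p, which has been linked to lifespan, ran from 6.63 to 252.1 CPM in N2 (median 20.1) and from 4.77 to 186 in Alg1E (median 13.7). Its log2 difference went from -1.41 to -0.39 (SE 0.18), and Alg1E stayed lower in 10 of 11 pairs. The hairpins are mir-85 on II from 8393553 to 8393658 (+ strand), in an intron of F49E12.8 on the opposite strand, and mir-246 on IV from 10940134 to 10940230 (+ strand), outside protein-coding genes (WBcel235, the assembly called ce11 elsewhere).

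Of other late miRNAs, miR-59-3p and miR-357-3p kept more of their difference, so a single shift did not bring all of them together. miR-59-3p went from -1.87 against the same hour to -1.06, with 2238 ± 2578 CPM in N2 and 1025 ± 1341 in Alg1E, and stayed lower in 10 of 11 pairs. miR-357-3p went from -1.897 to -0.96. miR-240-3p and miR-786-3p went from -1.43 to -0.49 and from -1.39 to -0.50, a change near that of miR-246-3p (-1.41 to -0.39). mir-240 and mir-786 are adjacent hairpins on X, from 7882622 to 7882718 and from 7882751 to 7882840 (+ strand). miR-59-3p jumped from 1106 to 3756 CPM between 24 and 25 h in N2 and from 1153 to 3632 CPM between 28 and 29 h in Alg1E, a gap of 4 h in place of 2.

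**Figure D1:**
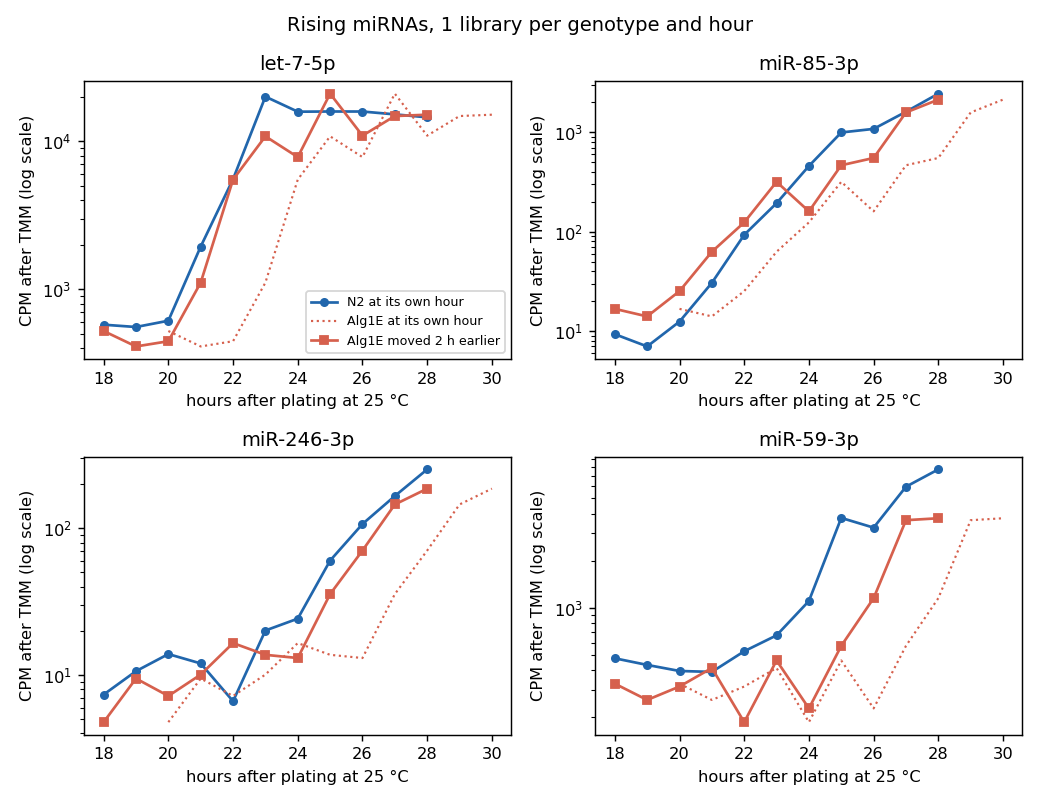
CPM after TMM (log scale) against hours after plating for let-7-5p, miR-85-3p, miR-246-3p and miR-59-3p; blue circles are N2, red squares Alg1E moved 2 h earlier and dotted red lines Alg1E at its own hour, with 1 library per point. The moved curve meets N2 in the steep part of the let-7-5p rise. For miR-85-3p it starts above N2 and ends below it. For miR-59-3p, which was 1.06 lower on the log2 scale, it lies mostly under N2.

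Pairing the same 9 Alg1E libraries (22 to 30 h) with N2 from 0 to 4 h younger shows how loosely these data fix the shift. Among the 7 major arms that changed most with time in N2, the root mean square difference was smallest at 2 h for let-7-5p, miR-85-3p and miR-786-3p, at 3 h for miR-240-3p, miR-246-3p and miR-357-3p, and at 4 h for miR-59-3p. For let-7-5p it fell from 1.93 at 0 h to 0.55 at 2 h, and for miR-59-3p from 2.51 at 0 h to 1.48 at 2 h and 0.55 at 4 h. Over the 53 to 54 time-changing miRNAs that are not minor arms, the median root mean square difference was lowest at 3 h. The medians were 0.94, 0.91, 0.88, 0.81 and 0.94 at 0, 1, 2, 3 and 4 h. By the SD of the pair differences, which ignores a constant difference, the best shift was another for miR-85-3p (0 h), miR-240-3p and miR-786-3p (1 h each), and the same for the other 4. Values of this kind were used to choose the shift of 2 h, which not all of them favour, and they are a description.

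Most miRNAs hardly change over 2 h, and for them the pairing made little difference. In N2 alone, the median absolute log2 change over 2 h was 0.09, 214 of 237 miRNAs changed by less than 0.25, and 13 changed by more than 0.5. A spline over the 13 N2 hours called 84 of 237 miRNAs (35.4%) as changing with time by edgeR, 40 rising and 44 falling. The 153 others are called time-flat here, which says that no change passed the test. Among the 25 rising miRNAs that are not minor arms, the median difference was -0.50 against N2 2 h younger and -0.97 against the same hour. Among the 29 falling ones it went the other way, from -0.23 to -0.49, and among the 90 time-flat ones from -0.53 to -0.60.

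After the shift, edgeR called 168 of 237 miRNAs (70.9%) at an adjusted p under 0.05. Of these, 78 were higher in Alg1E (32.9%) and 90 lower (38%), and 58 higher and 35 lower ones differed by more than 2-fold. Against N2 of the same hour, which shares all 11 Alg1E and 9 of 11 N2 libraries, 159 of 230 miRNAs were called (69.1%). Called in both with the same direction were 148 miRNAs, 11 were called at the same hour only, 16 with the shift only, and 0 with opposite directions, while the 4 others were tested with the shift only. The levels of Alg1E and N2 did not overlap for 75 of 237 miRNAs (31.6%).

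The direction of small differences depends on the scaling between libraries. Relative to TMM, RLE factors shifted the log2 median over the 237 miRNAs by -0.03, total counts by 0.35 and TMM from major arms by 0.53, and the 78 higher and 90 lower became 78 and 94, 103 and 57, and 115 and 44. Without the pair of Alg1E at 27 h and N2 at 25 h the log2 differences moved by a median of 0.19, and the split was 97 to 78. Called in one direction under each of the 4 scalings were 78 miRNAs higher and 44 lower. Of the 78, 70 were minor arms, and of the 44, 42 were not.

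**Figure D2:**
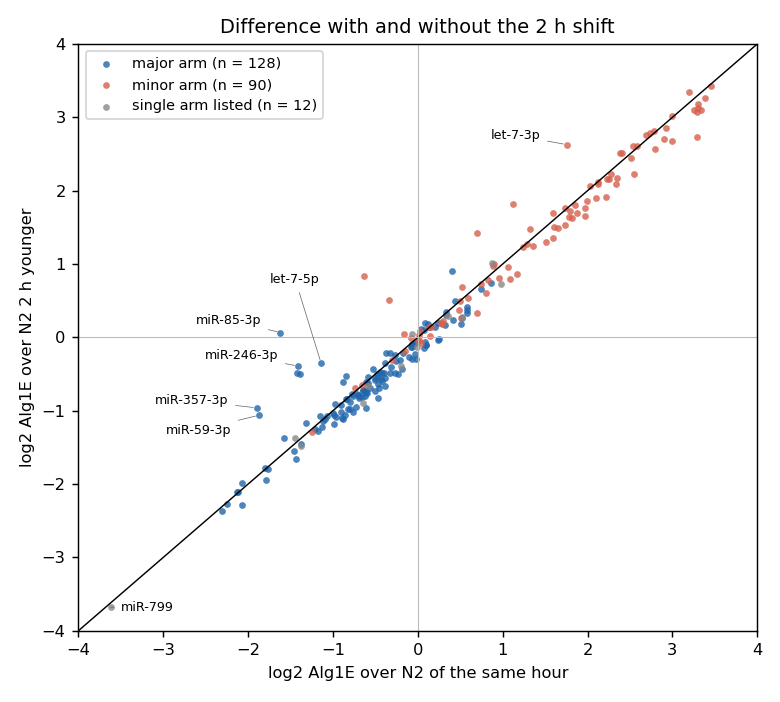
Log2 difference of Alg1E from N2 2 h younger (y axis) against that from N2 of the same hour (x axis), 1 point per miRNA tested in both comparisons, colored by arm class, with the line of equality. Most points lie along the line, from miR-799 (-3.68 with the shift) to the minor arms above 3, and the late risers let-7-5p, miR-85-3p, miR-246-3p, miR-357-3p and miR-59-3p lie above it.

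The largest increases with the shift were all minor arms, the arm of a hairpin with fewer reads over the 39 libraries. miR-52-3p, the partner of the abundant miR-52-5p, ran from 290 to 683 CPM in N2 (median 406) and from 2083 to 8188 in Alg1E (median 5154). Every Alg1E library lay above every N2 library. The log2 difference was 3.42 (SE 0.15, edgeR adjusted p = 5.81e-11), 10.7-fold, and higher in 11 of 11 pairs. The hairpin lies on IV from 14034008 to 14034107 (+ strand), outside protein-coding genes.

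miR-72-3p ran from 18.1 to 36.0 CPM in N2 (median 28.5) and from 164 to 360 in Alg1E (median 238.03), and differed by 3.18 on the log2 scale (SE 0.18, edgeR adjusted p = 3.66e-10). miR-87-5p ran from 29.1 to 104 CPM in N2 (median 82.2) and from 366 to 1153 in Alg1E (median 630), and differed by 3.10 on the log2 scale (SE 0.26, edgeR adjusted p = 3.64e-08). Neither pair of groups overlapped, and both were higher in 11 of 11 pairs. miR-239a-3p (3.09, SE 0.18) and miR-73-5p (3.08, SE 0.17) were also higher in each pair, with edgeR adjusted p = 7.63e-10 and 4.43e-10. miR-237-3p (3.35), miR-56-5p (3.27) and miR-60-5p (3.13) complete the 8 largest increases. These last 3 changed with time in N2, yet by at most 0.22 over 2 h, and their Alg1E and N2 levels did not overlap either. The mir-72 hairpin lies on II from 2452838 to 2452936 (+ strand), and mir-87 on V (12038688 to 12038781, - strand) within an intron of kup-1, which has the same orientation.

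Of the 93 minor arms tested, 70 were called higher and 2 lower, with a median log2 difference of 1.53 against -0.08 over all miRNAs tested. At the same hour 68 were called higher and 2 lower, with a median of 1.63. The 2 lower were miR-1829a-5p (-1.29) and miR-2210-5p (-2.36), whose major arms miR-1829a-3p (-1.14) and miR-2210-3p (-2.10) were lower as well. Of the 63 time-flat minor arms, which the choice of the shift did not use, 42 were called higher and 2 lower, with a median of 1.35. Of the 21 minor arms not called, miR-63-5p (0.18), miR-230-5p (0.22), miR-34-3p (-0.05) and miR-241-3p (-0.04) had a mean of at least 89.9 CPM in both groups; they were picked after their values were seen.

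Minor arms held 1.31% to 1.86% of the reads of 93 hairpins in N2 (mean 1.61% ± 0.162) and 7.22% to 8.88% in Alg1E (mean 8.04% ± 0.545, SD, n = 11 each). The share in each Alg1E library lay above that in each N2 library. The difference was 6.43 points ± 0.591, a ratio of 4.99, and higher in 11 of 11 pairs (exact sign-flip permutation test, two-sided p = 0.000977, the smallest that 11 pairs can give). Against N2 of the same hour it was 6.45 points, which differs by less than the SD over pairs.

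**Figure D3:**
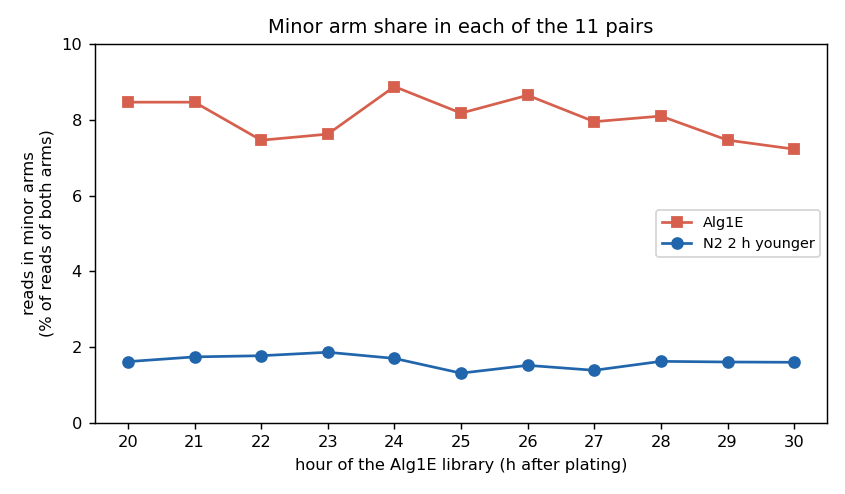
Share of reads in minor arms among the reads of both arms of 93 hairpins (y axis, %) in each of the 11 pairs, by the hour of the Alg1E library (x axis); red squares are Alg1E and blue circles N2 2 h younger. Alg1E lies between 7.22% and 8.88% and N2 between 1.31% and 1.86% at every pair.

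Within a hairpin, the ratio of minor to major arm does not depend on scaling between libraries. limma called it higher in Alg1E for 81 of 94 hairpins (86.2%) and lower for 1 at an adjusted p under 0.05, with a median of 4.05-fold. At the same hour it was higher for 79 and lower for 2, with a median of 4.19-fold. The largest change was in mir-70, where miR-70-5p was at 0.278% of the reads of miR-70-3p in N2 and at 6.17% in Alg1E, with reads summed over 11 libraries. Its log2 change was 4.36 (SE 0.19, limma adjusted p = 7.44e-11), higher in 11 of 11 pairs. mir-52 followed, from 0.366% to 6.40% (log2 4.22, SE 0.21, limma adjusted p = 1.29e-10), and then mir-56 (3.94), mir-60 (3.91) and mir-237 (3.89).

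In 3 hairpins the minor arm exceeded the major arm in Alg1E. These were mir-71 (34.3% in N2 and 105% in Alg1E), mir-235 (12.8% and 107%) and mir-240 (23.8% and 112%), chosen after their values were seen. In mir-71, whose loss shortens lifespan, miR-71-3p rose by 1.70 (edgeR adjusted p = 3.02e-08), while miR-71-5p, at 18636 ± 5480 CPM in N2 and 19945 ± 4808 in Alg1E, was not called (0.11, edgeR adjusted p = 0.438). miR-71-5p was called higher with total counts (0.46), TMM from major arms (0.64), a minimum of 10 CPM (0.26) and without the pair of Alg1E at 27 h (0.26). The 1 lower ratio was that of mir-250 (-0.71), whose major arm miR-250-5p was higher by 0.74 (edgeR adjusted p = 1.49e-05) and whose minor arm was not called (0.03). The ratios of mir-34 (0.09), mir-1820 (0.35), mir-2210 (-0.02) and mir-1829a (-0.15) were not called.

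In the let-7 hairpin the minor arm stood further above N2 with the shift than without it. let-7-3p ran from 8.51 to 549 CPM in N2 (median 140.0) and from 41.0 to 3186 in Alg1E (median 1241), with overlapping ranges. Its log2 difference was 2.63 (SE 0.30) with the shift, higher in 11 of 11 pairs, and 1.76 against the same hour, where edgeR did not call it. As a share of the reads of let-7-5p, let-7-3p peaked at 12.2% in N2 at 21 h and at 39.4% in Alg1E at 23 h, the libraries paired by the shift. From 25 to 28 h in N2 it was 0.54% to 1.17%, and in the Alg1E libraries paired with those, from 27 to 30 h, 7.58% to 11.8%. In N2 at 29 and 30 h, outside the pairing, it was 3.01% and 2.83%. The ratio was higher in 11 of 11 pairs (log2 2.96, SE 0.26). Both arms changed with time, so these values are a description.

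The largest decreases were miRNAs whose Alg1E and N2 levels did not overlap. miR-799, listed with a single arm, ran from 44.2 to 101 CPM in N2 (median 78.4) and from 1.904 to 11.3 in Alg1E (median 5.96). The log2 difference was -3.68 (SE 0.17, edgeR adjusted p = 6.69e-11), a level 12.8-fold lower, against -3.62 at the same hour. Its hairpin lies on X from 8600643 to 8600735 (- strand), outside protein-coding genes. At this depth 10 CPM stands for 11.5 to 46.7 reads per library, so the Alg1E levels of miR-799 rest on few reads. So do those of miR-1019-5p, miR-2210-3p and miR-8196b-3p below. These 4 decreases had a mean of 10 CPM or more in N2 only.

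miR-247-3p ran from 489 to 799 CPM in N2 (median 669) and from 40.6 to 185 in Alg1E (median 136), and differed by -2.37 on the log2 scale (SE 0.16, edgeR adjusted p = 2.41e-09). miR-788-5p ran from 3998 to 7189 CPM in N2 (median 5832) and from 958 to 2412 in Alg1E (median 1512), and differed by -1.94 on the log2 scale (SE 0.16, edgeR adjusted p = 3.42e-08). Both were lower in 11 of 11 pairs, and every Alg1E library lay below every N2 library. miR-788-3p, the minor arm, stood at 80.2% of the reads of miR-788-5p in Alg1E against 6.31% in N2. miR-2210-3p, from an exon of ZK593.2, fell from 16.2 ± 3.47 to 3.85 ± 2.29 CPM (log2 -2.10, SE 0.26, edgeR adjusted p = 2.98e-06). mir-247 lies on X from 4756971 to 4757068 (+ strand) and mir-788 on X from 8485294 to 8485371 (- strand), both outside protein-coding genes.

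miR-70-3p, among the most abundant N2 miRNAs, ran from 65737 to 107254 CPM in N2 (median 81335) and from 10096 to 25854 in Alg1E (median 18958). The log2 difference was -2.27 with the shift and -2.25 without. miR-241-5p, which shares the let-7 seed and acts at an earlier larval stage, ran from 906 to 1961 CPM in N2 (median 1319) and from 143 to 549 in Alg1E (median 392), with -1.99 and -2.07. The mirtron miR-1019-5p, from an intron of dyf-5, went from 16.9 ± 5.69 to 3.38 ± 0.828 CPM (-2.28 and -2.07), and miR-8196b-3p from 20.9 ± 5.24 to 6.03 ± 1.56 (-1.79 and -1.77). These 4 changed with time in N2, by -0.16 to 0.14 over 2 h, and were lower in 11 of 11 pairs. All 8 decreases were called under each alternative that tested them, with log2 values from -3.75 to -1.22.

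**Figure D4:**
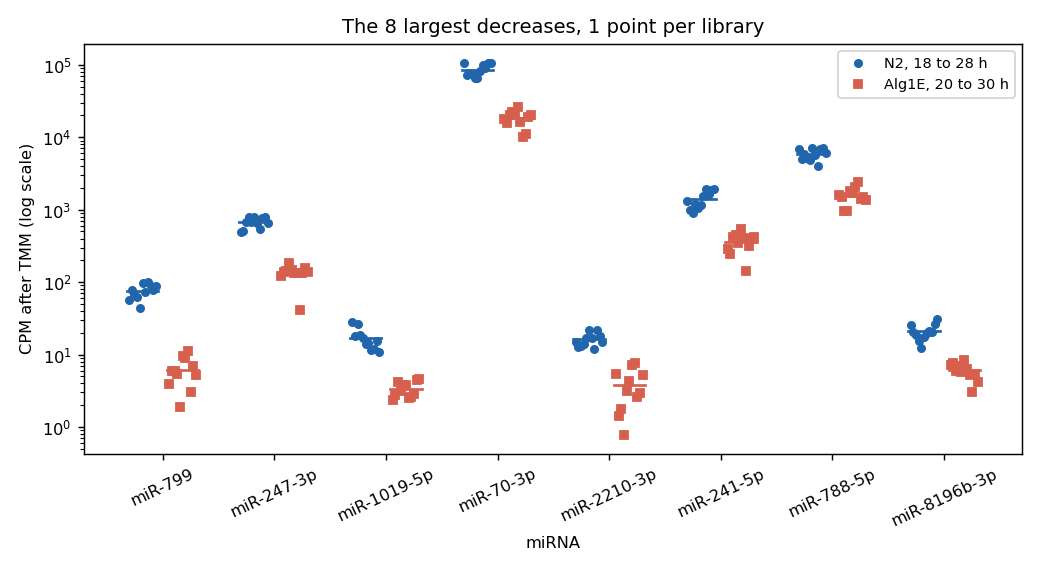
CPM after TMM (log scale) of the 8 miRNAs with the largest decreases, with 1 point per library; blue circles are N2 at 18 to 28 h, red squares Alg1E at 20 to 30 h, and lines the means (n = 11 each). For each of the 8 miRNAs every Alg1E point lies below every N2 point, from miR-799 (-3.68 on the log2 scale) to miR-8196b-3p (-1.79).

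Of the 130 major arms tested, 84 were called lower and 5 higher, with a median of -0.58. At the same hour 72 were lower and 10 higher. With TMM from major arms 38 were lower and 29 higher, and the median was -0.06. Of the 90 time-flat miRNAs that are not minor arms, 27 were called lower and 4 higher under each of the 4 scalings. Beside the largest decreases, the 27 include miR-355-5p (-1.25), miR-50-5p (-0.97), miR-75-3p (-0.92), miR-82-3p (-0.85), miR-80-3p (-0.80) and miR-52-5p (-0.80). The 4 higher were miR-1-3p (0.35), miR-1830-3p (0.67), miR-250-5p (0.74) and miR-4937 (1.19). Of these, miR-1830-3p (mean 6.58 CPM in N2 and 10.1 in Alg1E) and miR-4937 (2.78 and 6.93) rest on few reads.

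**Figure D5:**
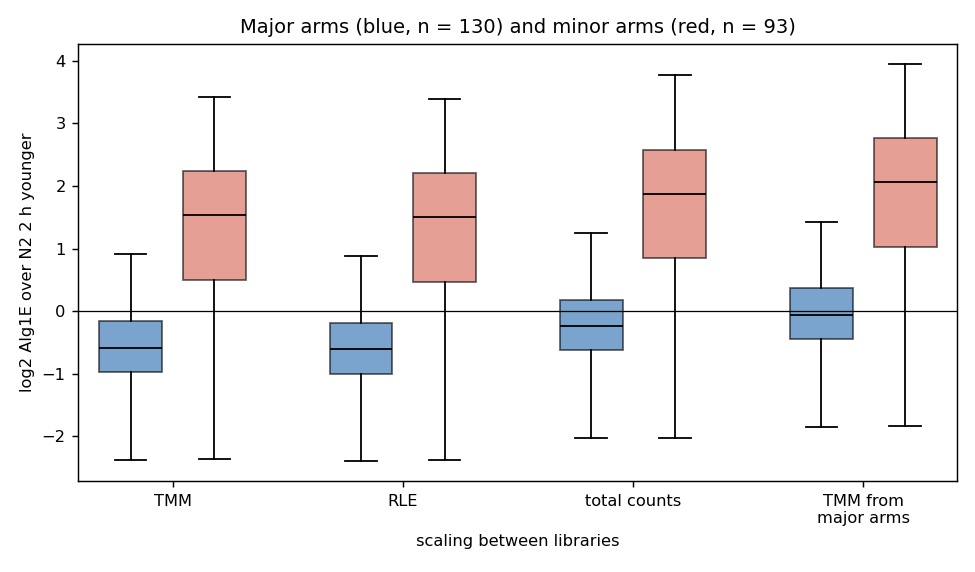
Log2 difference of Alg1E from N2 2 h younger (y axis) for 130 major arms (blue) and 93 minor arms (red) under 4 scalings between libraries (x axis); boxes span the quartiles, lines mark medians and whiskers the full range. The median of the major arms lies at -0.58 with TMM and at -0.06 with TMM from major arms, while that of the minor arms lies at 1.53 with TMM and far above that of the major arms under each scaling.

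Among the heterochronic miRNAs, 5 of 6 were called lower, beside 38% of all miRNAs and 84 of 130 major arms, with a median of -0.45 that turned to 0.08 with TMM from major arms. lin-4-5p, the first miRNA to be discovered, ran from 26870 to 45164 CPM in N2 (median 29399) and from 17244 to 30959 in Alg1E (median 19062). It was lower in 11 of 11 pairs (log2 -0.59, SE 0.11, edgeR adjusted p = 1.37e-04), against -0.42 at the same hour, and was not called with TMM from major arms (-0.06). miR-237-5p, its relative, was lower by a similar amount (-0.55, SE 0.13, edgeR adjusted p = 0.00160), and not with total counts (-0.20) or TMM from major arms (-0.02). miR-48-5p was not called (-0.24, edgeR adjusted p = 0.192), and miR-84-5p, which rose in N2, lay at -0.35 and at 0.17 with TMM from major arms. Its call was lost without the pair of Alg1E at 27 h (-0.13) or at 26, 28 or 29 h (-0.34 to -0.28). In the let-7 family as a whole 6 of 8 were called lower and 1, miR-793 (0.73), higher, with a median of -0.42 that turned to 0.10 with TMM from major arms, where 2 of 8 were called lower. The 5 of 6 and the 6 of 8 include let-7-5p, miR-84-5p and miR-241-5p, which rose in N2. Time courses of this kind chose the shift, so these calls are no test, nor is that of miR-793, which fell in N2. The let-7-5p call was lost without the pair of Alg1E at 21, 22, 23, 25, 26, 27 or 28 h (-0.34 to -0.24).

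In the mir-35 family, required for embryonic development, 6 of 8 members were called lower, against 4 of 8 at the same hour, and the median was -0.55 (-0.02 with TMM from major arms, where 1 of 8 was called lower). Among major arms 84 of 130 were lower with the shift and 72 at the same hour, so these shares are near those of the whole class. miR-40-3p ran from 56.8 to 186 CPM in N2 (median 88.0) and from 24.1 to 67.7 in Alg1E (median 40.3), and was lower in 11 of 11 pairs (log2 -1.28, SE 0.14, edgeR adjusted p = 5.36e-07). It was the member called under all 30 alternatives, with values from -1.34 to -0.75. miR-36-3p (-0.88), miR-37-3p (-0.56), miR-35-3p (-0.54), miR-38-3p (-0.42) and miR-39-3p (-0.31) were also called, and miR-41-3p (-1.16) and miR-42-3p (-0.09) were not. Without the pair of Alg1E at 27 h, miR-38-3p (-0.17) and miR-39-3p (-0.12) were not called either. Nor was miR-38-3p without that of 20, 24 or 26 h (-0.39 to -0.35), or miR-39-3p without that of 20, 21, 22, 26 or 29 h (-0.31 to -0.23). By contrast, miR-41-3p was called lower in 11 of 30 alternatives. Among these were DESeq2, late pairs only and the fits without the pair of Alg1E at 20, 21, 22 or 23 h. miR-35 to miR-41 lie in 1 cluster on II from 11537608 to 11538404 (+ strand), in introns of Y62F5A.9 on the opposite strand, and mir-42 lies apart on the same chromosome.

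In the other seed families, 5 of 5 members of the mir-64 family (median -0.72), 3 of 4 of the mir-58 family (-0.65) and 4 of 6 of the mir-51 family (-0.60) were called lower, beside 38% of all miRNAs and 84 of 130 major arms. So were both members of the mir-75 (-0.92), mir-46 (-0.71), mir-232 (-0.76) and lin-4 (-0.57) families, and these 7 medians stayed below 0 under all 4 scalings. Most of these calls were lost with TMM from major arms, where 1 of 5 (mir-64), 2 of 4 (mir-58), 2 of 6 (mir-51), 1 of 2 (mir-75) and 0 of 2 each (mir-46, mir-232 and lin-4) were called lower by edgeR. The mir-72 family had 2 of 3 lower (-0.41), the mir-87 family 1 of 2 (-0.41) and the mir-238 family 1 of 3 (-0.49), with medians of 0.12, 0.12 and 0.04 with TMM from major arms. The mir-44 family had 1 of 4 lower, miR-247-3p, and a median of -0.10 (0.24 with total counts, 0.43 with TMM from major arms). The mir-2 family had 1 of 4 lower, miR-2-3p, and 1 higher, miR-250-5p (median -0.25, 0.09 with total counts, 0.27 with TMM from major arms). In the mir-251 family miR-251 (-0.13) and miR-252-5p (0.42) were not called, and miR-252-5p was called higher at the same hour.

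Of the miRNAs linked to lifespan or stress, 2 of 7 were lower, beside 38% of all miRNAs, namely miR-228-5p (-1.01) and miR-238-3p (-0.49), with a median of -0.39 (0.13 with TMM from major arms). Of 4 listed mirtrons, which are made from introns without cutting by Drosha, miR-1019-5p was lower and the 3 others were not called, with a median of -0.23 (0.11 with total counts, 0.29 with TMM from major arms). In the WBcel235 annotation mir-1018 lies outside protein-coding genes, so its origin from an intron is not borne out there.

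Of the 5 most abundant miRNAs, miR-52-5p ran from 90181 to 162562 CPM in N2 (median 119220) and from 54867 to 84914 in Alg1E (median 73868). miR-80-3p, of the bantam-related mir-58 family, ran from 60941 to 91128 CPM in N2 (median 70298) and from 28973 to 52401 in Alg1E (median 40653). In both, every Alg1E library lay below every N2 library, with log2 differences of -0.80 (SE 0.11, edgeR adjusted p = 5.56e-06) and -0.80 (SE 0.11, edgeR adjusted p = 6.19e-06). miR-81-3p was lower too (-0.50, edgeR adjusted p = 7.61e-04, 0.03 with TMM from major arms), and miR-58a-3p was not called (-0.13, 0.39 with TMM from major arms).

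The tissue markers moved in different directions. The muscle miR-1-3p ran from 66079 to 122494 CPM in N2 (median 82576) and from 73521 to 131851 in Alg1E (median 117534), and was higher in 10 of 11 pairs (log2 0.35, SE 0.13, edgeR adjusted p = 0.0290). Its call was lost without the pair of Alg1E at 20, 21, 22, 23, 25, 29 or 30 h, where values lay from 0.30 to 0.35. The intestinal miR-60-3p was lower (-0.77, SE 0.18, edgeR adjusted p = 9.87e-04), and not called with total counts (-0.43) or TMM from major arms (-0.25). Among 3 neuronal miRNAs, miR-124-3p was lower (-0.76, edgeR adjusted p = 0.00758), but was not called with total counts (-0.41) or TMM from major arms (-0.23). lsy-6-3p (0.26) and miR-791-3p (0.33) were not called, yet were called higher with those scalings (0.61 and 0.68, 0.79 and 0.86). miR-791-3p is a minor arm, a class that was mostly higher in Alg1E, and rests on few reads (mean 9.63 CPM in N2 and 12.1 in Alg1E). In RNA of whole worms, fewer cells of a type and less RNA per cell cannot be told apart.

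Some calls made at the same hour were not made with the shift, and others were made with the shift only. The change between both values was not tested, since the comparisons share libraries. Beside miR-85-3p and miR-246-3p, the calls not made with the shift were small increases that became smaller, with 1 exception. They were miR-791-3p (0.69 to 0.33), miR-790-5p (0.51 to 0.19), miR-249-3p (0.58 to 0.33), lsy-6-3p (0.52 to 0.26), miR-1018 (0.52 to 0.28), miR-90-3p (0.42 to 0.23), miR-252-5p (0.58 to 0.42) and miR-72-5p (0.31 to 0.17). The minor arm miR-1820-3p, the last of the 11, hardly moved (-0.65 to -0.65). With the shift, miR-246-3p (-0.39) was called lower by RLE factors, by DESeq2, without the pair block and in late pairs only. It was also called lower without the pair of Alg1E at 24 h. Of the increases, lsy-6-3p (0.54), miR-1018 (0.57), miR-249-3p (0.42) and miR-90-3p (0.34) were called with the shift once the pair of Alg1E at 27 h was left out. miR-249-3p was also called without the pair of 20, 21 or 22 h, and in 15 of 30 alternatives in all.

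The calls made with the shift only were mostly decreases that became larger, beside let-7-3p. They were miR-1022-5p (-0.47 to -0.83), miR-56-3p (-0.45 to -0.69), miR-232-3p (-0.39 to -0.55), miR-795-5p (-0.33 to -0.49), miR-233-3p (-0.27 to -0.49), miR-235-3p (-0.19 to -0.43) and miR-53-5p (-0.10 to -0.27). Smaller changes were those of miR-76-3p (-0.66 to -0.81), miR-39-3p (-0.21 to -0.31), miR-74-3p (-0.31 to -0.41), miR-238-3p (-0.40 to -0.49), miR-800-3p (-0.64 to -0.73) and miR-37-3p (-0.50 to -0.56). The other 2 of the 16 were miR-5549-3p (0.40 to 0.91) and miR-85-5p, the minor arm of the late riser miR-85-3p (-0.63 to 0.84). Of the first 7 decreases, 0 were called with TMM from major arms as lower, and miR-53-5p was called higher there (0.25). Without the pair of Alg1E at 27 h, miR-232-3p (-0.20), miR-235-3p (-0.25) and miR-53-5p (-0.13) were not called. Without that of 28 or 29 h they were not called either (-0.49 and -0.47, -0.36 and -0.40, -0.24 and -0.25), and miR-232-3p was not without that of 20, 24, 26 or 30 h (-0.56 to -0.51).

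A difference that changes along the course would not be described by a single value, so the change of the difference per hour was tested. edgeR called 12 of 237 miRNAs (5.06%), and 55 had an unadjusted p under 0.05. Of the 12, 5 changed with time in N2. Time courses of that kind chose the shift, so these 5 slopes are no test. At the same hour 0 were called by edgeR, with 49 at an unadjusted p under 0.05. Without the pair of Alg1E at 20 h or that at 21 h 0 were called as well, with 47 and 50 at an unadjusted p under 0.05. Without the pair of 22, 23, 26, 28, 29 or 30 h, 5, 4, 7, 6, 7 and 2 were called. DESeq2 was not run for this test. miR-797-3p went from 313, 291, 377 and 472 CPM in Alg1E at 20 to 23 h to between 46.5 and 140 from 24 h on, while N2 stayed between 88.2 and 194 (slope -0.33 per hour, edgeR adjusted p = 0.0175). miR-247-5p, from the hairpin next to mir-797 on X, had a slope of -0.33, and miR-8206-3p of -0.25. miR-360-5p (-0.67 per hour) and miR-239b-5p (-0.52 per hour) were high in Alg1E at 20 to 23 h as well, at 130 to 479 and 317 to 1127 CPM, and from 24 h on they were at 5.17 to 74.9 and 36.2 to 283.

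In 3 of 7 members of the mir-35 cluster the difference shrank along the pairs. miR-35-3p lay at a mean of -0.90 over the first 5 pairs and of -0.23 over the last 6 (slope 0.13 per hour), miR-36-3p at -1.26 and -0.56 (slope 0.15 per hour) and miR-37-3p at -0.95 and -0.23 (slope 0.15 per hour). The slopes of miR-38-3p (0.0097), miR-39-3p (0.05), miR-40-3p (0.05) and miR-41-3p (-0.40) were not called, and miR-41-3p went from 0.06 to -2.15. miR-35-3p ran from 144 to 407 CPM in N2 and from 101 to 295 in Alg1E, and was above 230 CPM in Alg1E in 5 libraries, those of 25, 26, 27, 29 and 30 h. miR-1022-5p, which fell in N2 from 92.1 to 27.2 CPM, lay between 16.2 and 45.3 CPM in Alg1E throughout (slope 0.18 per hour). The neighbouring pairs were less alike with the shift than at the same hour, with a median correlation of successive pair differences of 0.22 against 0.34 over miRNAs. Such a correlation makes the p-values too small.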

How the data were processed

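The values are counts of reads for each mature miRNA, deposited by the authors as whole numbers that were not normalized. Per the labels' protocols, libraries came from the QIAseq miRNA Library Kit. The submitters' processing notes name build ce11, cutadapt 2.3, Bowtie 1.2.2, SAMtools 1.9 and HTSeq. Settings, strand, annotation version and handling of molecular identifiers were not given in the sources used here. Counts may therefore include PCR copies, and miR-44-3p and miR-45-3p, with log2 differences of -0.10 each, may share reads.

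The 5 summary entries of HTSeq did not enter library sizes or tests. Of these, reads without a feature took 34.3% in N2 and 51.8% in Alg1E, and ambiguous reads at most 0.0917%. No 2 of the 22 libraries agreed within sampling noise (231 pairs of libraries, lowest chi-square per degree of freedom 21.9).

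The counts of the 22 libraries were tested by edgeR's quasi-likelihood test (edgeR 4.0.16, R 4.3.3), with pair as a factor plus genotype, after filterByExpr and TMM. The p-values were two-sided and adjusted by Benjamini-Hochberg over all 237 miRNAs, with a threshold of 0.05. The pairing comes from the hours, since the labels give no replicate numbers. The same fit was made with N2 of the same hour, and a further term tested genotype by hour. Change with time in N2 was tested over 13 libraries with a natural spline with 3 degrees of freedom. Minor and major arms were set by reads over 39 libraries. limma 3.58.1 tested the log2 ratio of both arms (prior count 0.5) in 94 hairpins where each arm had a mean of 10 reads or more. Alternatives were other shifts, RLE factors, total counts, TMM from major arms, other filters, DESeq2 1.42.0, no pair block, early or late pairs, and each pair left out. The scripts were tested on simulated counts.

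The members, the lists and the shift were chosen with earlier results of these data known. Named by rule were the 8 largest increases and decreases among called miRNAs with the same direction in at least 9 of 11 pairs. These needed a mean of at least 10 CPM only in the group where they were higher, which is N2 for the decreases. Also named were the 8 calls each that the shift removed or added with the largest change in log2 difference. The 8 smallest p-values of the slope were named too. The heterochronic miRNAs, miR-35-3p to miR-42-3p, miR-1-3p, miR-60-3p and the 5 miRNAs with most reads were always given. Hairpin positions are from the WBcel235 annotation, in which 54 of 55 hairpins matched by name.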

Additional observations from a re-analysis of the deposited data

Results flagged for a closer look

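By the test of genotype by hour, edgeR called the difference between Alg1E and N2 2 h younger as changing along the pairs in 12 miRNAs. Of these, 8 are named by rule. At the same hour 0 were called, as without the pair of Alg1E at 20 h or that at 21 h. Of the 12, 5 changed with time in N2, and such time courses chose the shift, so those 5 calls are no test. On the log2 scale per hour the difference fell in miR-360-5p (-0.67), miR-239b-5p (-0.52), miR-797-3p (-0.33), miR-247-5p (-0.33) and miR-8206-3p (-0.25), and rose, from below 0, in miR-1022-5p (0.18), miR-37-3p (0.15) and miR-35-3p (0.13). The first 4 were higher in each Alg1E library of 20 to 23 h than in each later one, and miR-8206-3p was in 3 of those 4 libraries. The N2 library of 25 h held the highest N2 level of miR-360-5p (602 CPM) and miR-239b-5p (934 CPM). The 4 Alg1E libraries held 1146950 to 2798168 miRNA reads.

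Reads that fell on no miRNA entry, which enter no comparison of miRNA levels, took a share 17.5 points higher in Alg1E than in N2 2 h younger. Their part in the differences was not tested, and the 5 pairs whose Alg1E library had at most 50% of such reads gave 62 higher and 50 lower miRNAs.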

How the results depend on the processing

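Over 30 alternatives and 62 named miRNAs, 1511 values kept direction and call, 206 lost the call, 103 gained it and 37 turned. Of the 168 calls, 90 were lower in Alg1E. These became 57 with total counts, 44 with TMM from major arms and 50 in the 5 pairs with at most 50% of reads without a feature, a setting chosen after seeing the data. Major arms called lower went from 84 to 51, 38 and 44. Slopes went from 12 to 0 with N2 of the same hour and from 0 to 17 with each pair left out, and the cause was not tested. Without the pair block, 175 miRNAs were called. No paired analysis by replicate number was possible because the labels give none.

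With other N2 ages these turned: miR-85-3p against the same hour (-1.62) and 1 h younger (-0.72), let-7-5p 3 h (0.0895) and 4 h younger (0.61), miR-786-3p (0.0051 and 0.49), miR-240-3p (0.46), miR-246-3p (0.69) and miR-357-3p (0.27) 4 h younger. With Alg1E at 22 to 30 h the values that differ were -1.85 and -1.05 for miR-85-3p at 0 and 1 h and 0.16 for let-7-5p at 3 h. Total counts turned miR-39-3p (0.0353), miR-42-3p (0.25) and miR-53-5p (0.0732). TMM from major arms turned let-7-5p (0.17), miR-233-3p (0.0373), miR-235-3p (0.10), miR-240-3p (0.0268), miR-38-3p (0.10), miR-39-3p (0.22), miR-42-3p (0.43), miR-53-5p (0.25), miR-58a-3p (0.39), miR-786-3p (0.0259), miR-795-5p (0.0348), miR-81-3p (0.0300) and miR-84-5p (0.17). Early pairs turned miR-232-3p (0.10), miR-786-3p (0.0629) and miR-84-5p (0.0636), and late pairs miR-797-3p (-0.74).

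Each hour has 1 library per genotype, so age, culture and library cannot be told apart within a pair.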
